A study of Mus musculus with 16 samples.

Results

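The 324 sites described here are places on the mouse genome (mm10) where THOC5 immunoprecipitates gave a peak in each of 8 peak lists. Peaks of the 8 lists that overlapped by at least 1 base were merged into 12362 sites, and the 324 with a peak from every list (2.62%) were kept. They hold 2596 of 28998 peaks (8.95%). They were chosen by the measured presence of a peak in every list, so that presence, and the high scores that tend to go with it, describe the choice and are not tested.

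The lists come from primary mouse vascular smooth muscle cells, the contractile cells of the artery wall, in 4 conditions with 2 lists each. THOC5 OE cells overexpressed THOC5 and were kept in osteogenic medium. GFP OE cells overexpressed GFP in the same medium, and their genotype is labelled wild type. Pi cells were unmodified wild-type cells in osteogenic medium, and Ctrl cells were unmodified wild-type cells in growth medium. How the cells were made to overexpress a protein, and from which promoter, the labels do not say. Nothing in the labels says that the 2 lists of a condition come from separate cultures or animals, so each p-value speaks only of the spread between these lists. Each immunoprecipitate has a labelled input, 8 in all, and these were not analysed here. No correction for the amount of the transcript was made here, and whether the deposited scores carry one is not known. More binding per transcript and more of the transcript therefore cannot be told apart.

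THOC5 belongs to the THO complex, the core of the larger TREX assembly, which couples transcription and processing of an RNA to its export from the nucleus. In RNA immunoprecipitation an antibody pulls the protein down with the RNAs it holds, and a peak marks a stretch where recovered fragments pile up. Vascular smooth muscle cells in high phosphate can lose contractile genes and take on bone-like traits, the process modelled by osteogenic medium.

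The lists hold 2572 to 4795 peaks, all peaks of a list have the same width (415 to 553 bp), and the strand is + for every peak, so overlapping genes cannot be separated. Of 16 contractile smooth muscle genes 6 carried a peak in any list: Mylk in all 8 lists, Acta2 in 3, Smtn in 2, and Tagln, Lmod1 and Tpm2 in 1 each. Myh11, Cnn1 and Myocd were among those with 0. Of 8 endothelial, 8 fibroblast and 8 leukocyte marker genes, 1 of each carried any peak (Flt1, Pdgfra and Csf1r) and 0 held a site of all 8 lists. A peak is no measure of a transcript's level, so the labelled cell type was not settled by these values. Thoc5 itself carried 1 peak, in Ctrl 2, and held no site of all 8 lists.

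At 5 sites the stretch shared by all 8 peaks overlapped a RefSeq promoter window, the 250 bases before to 50 after a gene's listed start (GRCm38.p6), and at 1 of them it lay wholly inside. That site is upstream of Kmt2d, the gene of a histone H3 lysine 4 methyltransferase. The site spans chr15:98870980-98871816, and the stretch covered by all 8 peaks is chr15:98871263-98871431. It is printed 5′ to 3′ on the minus strand, the gene's strand, with each CG dinucleotide in capitals, because it is the site whose shared stretch the promoter table holds in full.

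Kmt2d: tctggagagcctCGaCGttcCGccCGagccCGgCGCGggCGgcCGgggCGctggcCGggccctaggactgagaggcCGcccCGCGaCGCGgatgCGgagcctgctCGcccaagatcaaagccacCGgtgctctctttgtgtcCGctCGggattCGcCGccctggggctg

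This stretch of 169 bases lies 58 to 226 bases before the listed start of Kmt2d. It is 74.0% G or C and holds 23 CG dinucleotides, which read the same on both strands. The whole 300-base promoter window is 62.7% G or C with 27 CG dinucleotides. Of the 32851 promoter windows of that length in the table, 23.1% are at least as rich in G and C and 15.5% hold at least as many CG. The RefSeq span of Kmt2d also covers the site, so a longer transcript may reach it. None of the 324 sites overlapped any of 1005 RefSeq microRNA hairpins.

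Most sites were compact. In 308 of them some stretch was covered by a peak of every list, and 322 held exactly 1 peak per list. The merged sites were 553 to 1770 bp wide with a median of 628 bp. The midpoints of the 8 peaks lay within a median of 128 bp of each other, with quartiles of 58.75 and 284 bp, and within 100 bp at 129 sites. The widest site, in an exon of Shroom2, an actin-binding protein gene, held 11 peaks over 1770 bp.

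Sites with a peak in fewer lists were far more numerous. The 12362 merged sites divide into 6070 in 1 list, 2339 in 2, 1392 in 3, 861 in 4, 581 in 5, 440 in 6, 355 in 7 and 324 in 8. Just outside the rule, the 355 sites of 7 lists lacked Pi 1 in 112 cases, Ctrl 1 in 75, GFP OE 2 in 50, Pi 2 in 42, GFP OE 1 in 32, Ctrl 2 in 18, THOC5 OE 2 in 18 and THOC5 OE 1 in 8. Pi 1, Ctrl 1 and GFP OE 2 are also the 3 shortest lists, with 2666, 2603 and 2572 peaks. Within a list each peak's score was turned into a percentile, where 100 is the highest score of that list. The lowest percentile of a site over its lists had a median of 72.1 for sites of 8 lists and 53.9 for sites of 7 lists, and the median percentile was 81.6 for 8 lists and 71.6 for 7 lists.

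**Figure D1:**
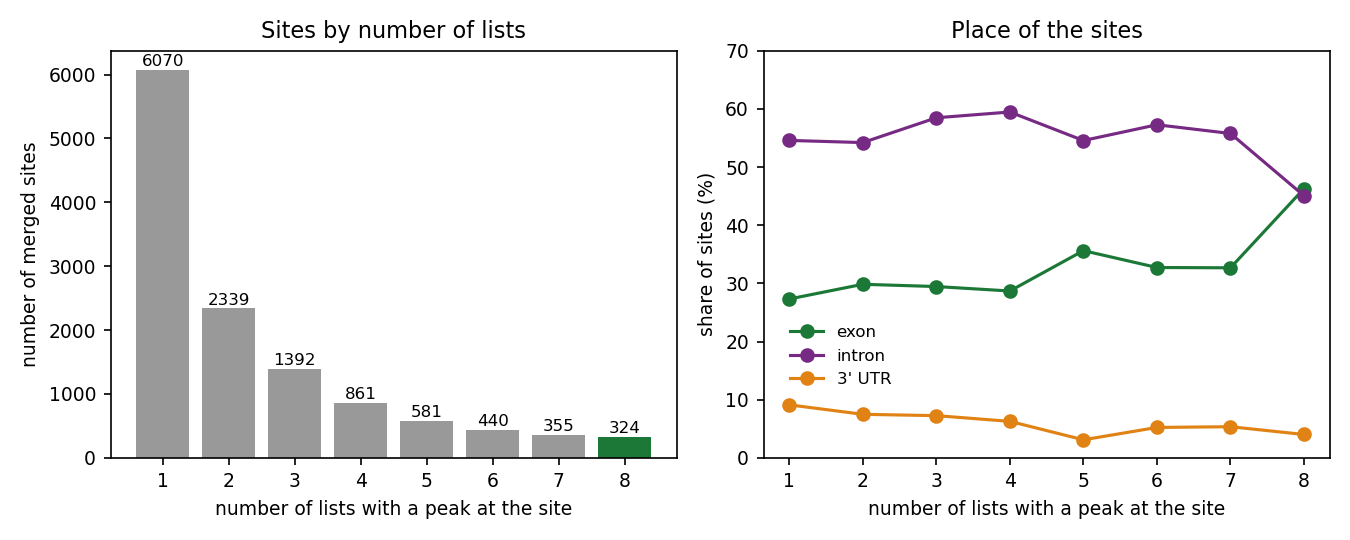
Left, the number of merged sites (y axis) by the number of lists with a peak there (x axis), with the 324 sites of 8 lists in green. Right, the share of sites (y axis, %) placed in exons, introns and 3' UTRs by the same number of lists: exons make up 46.3% at 8 lists and 32.7% at 7. Here each site takes the place of its highest-scored peak over all lists, not the class given by most lists.

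The 324 sites lay in exons more often than the other peaks of the same lists, and in introns, 3' UTRs and on repeats less often. By the deposited annotation, 44.6% ± 1.74 of the peaks at these sites were in exons, against 28.9% ± 3.52 of the other peaks (SD, n = 8 lists). The share was higher in 8 of 8 lists, by 15.8 ± 2.86 percentage points (exact two-sided sign-flip permutation test over lists, p = 0.0078125, the smallest it can give, adjusted p = 0.0100 over 9 measures). Introns held 47.3% ± 2.03 of the peaks at these sites and 57.5% ± 3.88 of the other peaks. The intron share was lower in 8 of 8 lists (adjusted p = 0.0100, same exact test). The lists share the sites, so these p-values describe how alike the lists are and not independent draws of sites.

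The ends of transcripts were less represented at the shared sites than among all other peaks, which mix sites of 1 to 7 lists. Peaks in 3' UTRs were 3.78% ± 0.146 at the shared sites and 6.74% ± 0.787 elsewhere, and peaks at annotated transcription ends 0.308% ± 0.000508 and 1.07% ± 0.223. Both were lower in 8 of 8 lists, each with an adjusted p = 0.0100 in the exact test. Only 1 shared site was placed at a transcription end. The SD of that share at the shared sites reflects only small changes in the number of peaks per list. The p-value for transcription ends is therefore no evidence of a depletion over many sites. The 5' UTR share, 1.08% ± 0.330 at the shared sites against 0.956% ± 0.280 elsewhere, was higher in 5 of 8 lists and did not pass (p = 0.539 in the exact test). Annotated repeats lay under 5.82% ± 1.04 of peaks at the shared sites and 8.50% ± 1.67 of other peaks (lower in 8 of 8 lists, adjusted p = 0.0100, exact test).

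Shared sites also lay earlier in the order of exons and, counted by peaks, in longer genes. The median exon number, as a percentage of the exons of the transcript, was 36.4% ± 1.29 at shared sites and 47.6% ± 3.02 for other exon peaks. The median span of the gene from its first to its last base was 156 ± 2.42 kb at shared sites and 111 ± 17.1 kb elsewhere. Both differences were found in 8 of 8 lists with an adjusted p = 0.0100 in the exact test. With each gene counted once, the genes of the shared sites had a median span of 119 kb. Genes with many sites therefore raise the value counted by peaks, and the other peaks were not counted once per gene. Among intron peaks, the first intron took 5.71% ± 0.658 at shared sites and 9.25% ± 2.57 elsewhere, lower in 7 of 8 lists and higher in Ctrl 1 (6.71% against 5.10%). That difference passed (adjusted p = 0.0176, exact test), but not with only the peaks at or over the median score of each list (adjusted p = 0.167, exact test) nor with lists cut to equal length (adjusted p = 0.0615, exact test).

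**Figure D2:**
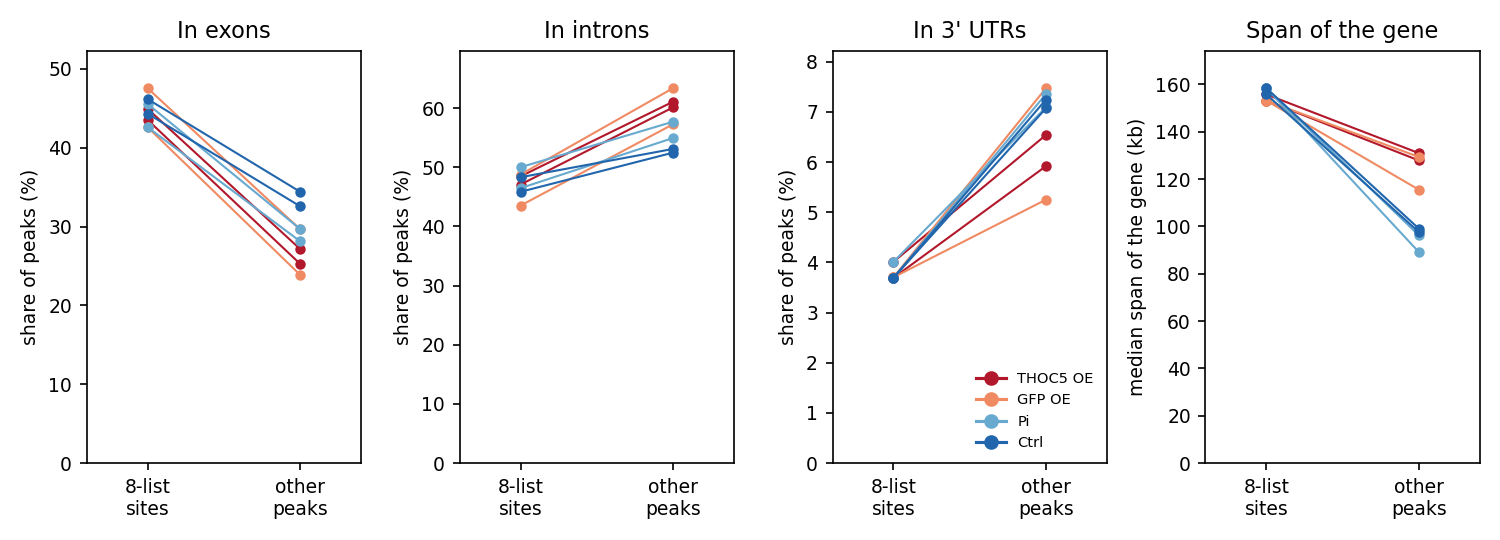
Share of peaks (y axis, %) in exons, introns and 3' UTRs, and median span of the gene (y axis, kb), for peaks at the 324 sites of 8 lists (left points) and the other peaks of the same list (right points). Each line is 1 list, coloured by condition; all 8 lines fall from left to right for exons and gene span and climb for introns and 3' UTRs.

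Counted by site, 147 were placed in exons and 150 in introns, with 12 in 3' UTRs, 5 at promoters, 4 in 5' UTRs, 3 labelled intergenic, 2 in non-coding exons and 1 at a transcription end. Among the exon sites 132 were internal, 9 in a first exon and 6 in a last exon, and their transcripts had a median of 38 exons (8 to 146). Of the intron sites, 8 were in the first intron and 0 in the last. The place was the same class in all 8 lists at 256 sites, and at 59 sites it was an exon in some lists and an intron in others. For the share by number of lists, each site took the place of its highest-scored peak over all lists. By that rule exons made up 27.3% of sites of 1 list, 32.7% of sites of 7 lists and 46.3% of sites of 8 lists. Introns made up 45.1% of sites of 8 lists by the same rule, so it orders exons and introns otherwise than the count above. The 3' UTR share by the same rule was 9.11% at 1 list, 3.10% at 5, 5.35% at 7 and 4.01% at 8. Median gene span was 80.2 kb at 1 list, 144 kb at 7 and 153 kb at 8. A low 3' UTR share and long genes are therefore not particular to the 324 sites. These values are a description with no test.

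The 3 intergenic sites lie inside RefSeq gene spans. One, at chr1:135607031-135607779, is inside Nav1, a neuron navigator gene, with percentiles of 95.9 to 97.8. The others, chr5:113182943-113183795 and chr5:113190779-113191854, are both inside 2900026A02Rik.

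Scores differed by place within the 324 sites, as a description. The median over sites of the median percentile was 96.9 for the 12 sites in 3' UTRs, 89.9 for the 147 in exons and 74.2 for the 150 in introns. At 70 sites the percentile was at least 90 in every list, and 47 of these were in exons and 12 in introns. At 80 sites it was under 50 in at least 1 list, and 24 of these were in exons and 51 in introns. Ctrl 1 was the list with the lowest percentile at 216 of the 324 sites. The median percentile of the 324 sites was 85.5 and 84.7 in the THOC5 OE lists and 83.4 and 82.3 in the GFP OE lists. It was 78.5 and 81.3 in the Pi lists and 74.5 and 82.4 in the Ctrl lists. Percentiles given by list for single sites are therefore no comparison of conditions.

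The strongest sites, chosen here by their lowest percentile over the lists, kept nearly the same order in all lists. A site low in any list could not be chosen by that rule. High ranks in every list therefore describe the choice and are not tested. An internal exon of Dst (dystonin, a plakin that links cytoskeletal filaments to one another and to membranes) had the highest score of the 324 in 8 of 8 lists. This site is chr1:34228220-34228773, in exon 52 of 93, and it is the highest peak of the whole list in THOC5 OE 1 and 2, GFP OE 1 and 2 and Pi 1 (percentile 100). The next was exon 16 of 21 of Nisch (chr14:31176906-31177504), whose product nischarin binds integrin and restrains cell migration. It had rank 2 of 324 in 8 of 8 lists. The last exon of Nisch, exon 21 of 21 (chr14:31171229-31171970), had ranks of 3, 3 in THOC5 OE, 4, 3 in GFP OE, 3, 4 in Pi and 3, 3 in Ctrl.

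The sites that follow lie in other large cytoskeletal and regulatory genes. Exon 19 of 35 of Prrc2c, whose product takes part in translation initiation (chr1:162697645-162698217), had ranks of 4, 5 in THOC5 OE, 3, 6 in GFP OE, 4, 3 in Pi and 4, 4 in Ctrl. Exon 13 of 31 of Sptbn1, a beta spectrin of the membrane skeleton (chr11:30138642-30139271), stayed between ranks 4 and 6 in all lists. Exon 8 of 77 of Dync1h1, the heavy chain of cytoplasmic dynein (chr12:110617787-110618424), stayed between ranks 5 and 7. An intron of Dst (intron 61 of 97), intron 4 of 25 of Fat1 (a giant cadherin), the 3' UTR of Dst and exon 2 of 10 of Zfhx3 (a zinc finger homeobox transcription factor) complete the 10 highest, all between ranks 6 and 15.

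At the other end, 13 sites fell under the 10th percentile in at least 1 list. The 5 sites whose best percentile was lowest were in Wwp1 (an E3 ubiquitin ligase, chr4:19672574-19673150), Syne1 (chr10:5423879-5424645), Kdm6a (a histone demethylase, chrX:18264072-18264639), Kalrn (chr16:34251753-34252740) and Nbas (a Golgi tethering and mRNA decay factor, chr12:13453038-13453654). The Wwp1 site reached percentiles of 41.9 and 40.8 in the THOC5 OE lists, 38.8 and 28.2 in the GFP OE lists, 15.0 and 40.2 in Pi and 4.1 and 28.9 in Ctrl. The steadiest site below percentile 90 was intron 11 of 65 of Fbn1, fibrillin-1 of the elastic fibre (chr2:125389355-125389916), at 79.2 to 84.2 over the 8 lists.

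Many genes held more than 1 site. The sites lay in 191 genes, of which 138 held 1 site, 23 held 2 and 30 held 3 or more, and these 30 genes held 137 of the 324 sites. Genes bound in every list did not always hold a shared place: of 400 genes with a peak in all 8 lists, 186 (46.5%) held a site of all 8 lists and 214 did not. Sites of 1 gene lie on the same transcript and are not independent of each other.

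Syne1 and Syne2, which encode the nesprins that tie the nuclear envelope to actin and other filaments, held 15 and 8 sites. The 15 Syne1 sites were 7 in exons, 7 in introns and 1 at a promoter inside the gene, and they spread over 51.952 to 522 kb from the lower end of its 531 kb span. Their median percentiles over the lists went from 37.0 to 92.7, so a gene with many sites could hold both weak and strong ones. The strongest was in intron 78 of 145 (chr10:5221795-5222443), at 94.8 and 93.4 in the THOC5 OE lists, 93.7 and 91.9 in the GFP OE lists, 83.7 and 89.3 in Pi and 88.3 and 93.4 in Ctrl. The 8 Syne2 sites, 4 in exons and 4 in introns, had their middles within 197 kb of the lower end of a 293 kb span. Syne1 carried peaks at 75 merged sites in any list, and these 15 were the ones shared by all 8.

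Vps13b and Vps13d belong to a family of lipid transfer proteins that bridge membranes. Vps13b held 13 sites, 11 of them in introns and 2 in exons, with median gaps of 39.3 kb between neighbours and a longest gap of 87.7 kb. Its strongest site, in exon 34 of 62 (chr15:35709291-35709897), had percentiles of 94.9 and 95.2 in the THOC5 OE lists, 93.7 and 92.2 in the GFP OE lists, 90.2 and 89.9 in Pi and 87.6 and 90.9 in Ctrl. Vps13d held 5 sites, the highest in exon 20 of 69 (chr4:145148552-145149118), between percentiles 97.7 and 99.2. Lrba, a BEACH domain gene of vesicle traffic, held 7 sites, all within the first 137 kb from the lower end of a 559 kb span. Herc2, a giant E3 ubiquitin ligase, held 7 sites, 6 of them in introns, with median percentiles in a narrow band of 64.9 to 81.5.

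Dst held 6 sites, and none of them was weak: their median percentiles ran from 89.7 to 100. Nav2, a neuron navigator that binds microtubule ends, held 5 sites, 4 in exons and 1 in the 5' UTR (chr7:49246394-49246947), the last at percentiles 97.0 to 98.8. Ylpm1, a nuclear protein that binds protein phosphatase 1, held 4 sites, all in exons, in a gene of 91.9 kb, with percentiles of 91.7 to 98.9. Firre, a long noncoding RNA of the X chromosome that stays in the nucleus, also held 4 sites, 3 in introns and 1 in a non-coding exon. The strongest Firre site, in intron 1 of 19 (chrX:50634595-50635177), had percentiles of 97.3 and 97.1 in the THOC5 OE lists, 96.8 and 96.6 in the GFP OE lists, 93.3 and 95.5 in Pi and 93.2 and 95.7 in Ctrl.

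**Figure D3:**
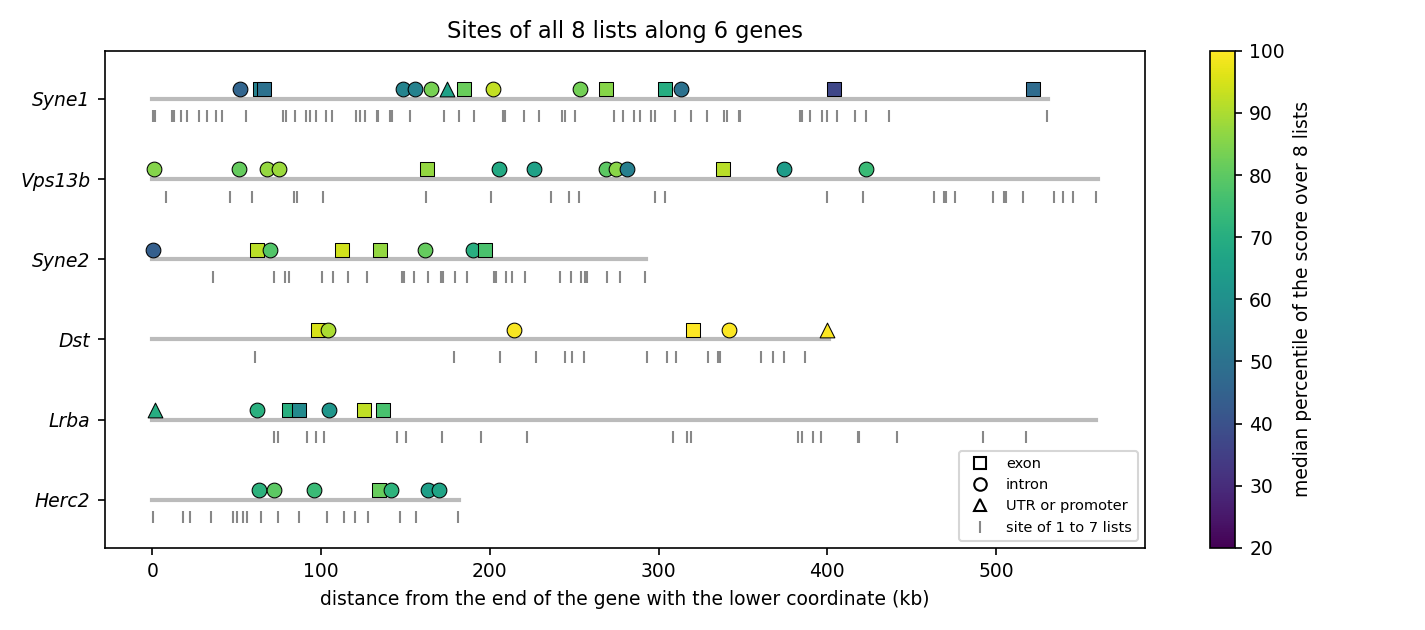
Position of the sites of all 8 lists along the 6 genes that hold the most, as distance in kb from the end of the gene with the lower coordinate (x axis); marker shape gives the place and colour the median percentile of the score over 8 lists. Grey ticks are sites of 1 to 7 lists. Syne1 and Vps13b carry sites over most of their length, while those of Syne2 end near 197 kb and those of Lrba near 137 kb.

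Sites in the remaining places were few. The strongest 3' UTR sites were in Dst (chr1:34307520-34308130, percentiles 99.1 to 99.7), Zc3h11a, a zinc finger protein gene tied to TREX (chr1:133620968-133621593, 99.0 to 99.5), Speg, a muscle kinase gene (chr1:75431520-75432083, 97.1 to 98.6) and Abcc5, a transporter gene (chr16:20331519-20332471, 95.1 to 98.7). The Abcc5 site has no stretch covered by all 8 lists. The Kmt2d promoter site printed above had percentiles of 96.8 and 95.7 in the THOC5 OE lists, 97.0 and 96.5 in the GFP OE lists, 92.3 and 93.2 in Pi and 91.9 and 94.7 in Ctrl. The promoter site named for Bend6 (chr1:33908313-33908867) also lies inside the span of Dst, and the 5' UTR site of Dcun1d5 (chr9:7176439-7177100) inside that of Dync2h1, so their gene is uncertain.

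Annotated repeats lay under 32 sites in at least 1 list and under 10 in all 8, and 0 of them were rRNA repeats. The strongest were a GGGA simple repeat in intron 35 of 73 of Utrn, the dystrophin relative utrophin (chr10:12669563-12670160, percentiles 95.5 to 97.7), and a CA simple repeat in intron 6 of 65 of Col5a1, a collagen V chain gene (chr2:27950817-27951386, 95.4 to 97.8). SINE elements lay under the site in intron 4 of 70 of Trrap, a chromatin acetylation scaffold gene (chr5:144777248-144777810, 88.4 to 93.3), and under one in intron 17 of 40 of Brwd1, a bromodomain gene (chr16:96046513-96047279, 87.5 to 94.0).

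Gene lists set out the functions of the bound genes. Of 4051 genes with a peak in their transcript in any list, 4.62% held a site of all 8 lists, and that share is the background for the counts below. The lists were drawn up with earlier results of these data known, so a high share is no evidence about a list. The linker list (plakins, nesprins, spectrins, ankyrins) had 7 of 14 bound genes with such a site, and these held 33 sites: Dst, Sptbn1, Macf1, Utrn, Syne2, Syne1 and Ank3. In the list of vesicle traffic and BEACH genes it was 8 of 17, with 32 sites, led by Vps13d, Golgb1 (a golgin), Wdfy3 (a selective autophagy adaptor) and Lrba. Among ubiquitin ligases and deubiquitinases it was 8 of 16, with 20 sites, led by Birc6 (an inhibitor of apoptosis with ligase activity), Rnf213, Herc1 and Hectd4. Among chromatin genes it was 12 of 33, with 15 sites, led by Zfhx3, Nsd1, Setd5 and Chd8. The 12 include Kmt2d, whose only site of all 8 lists is at its promoter, while the background counts sites within transcripts.

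In the lists on RNA processing, 1 to 4 bound genes held a site. Of mRNA decay genes, 4 of 17 bound genes held a site: Smg1 (the kinase of nonsense-mediated decay), Tnrc6a and Tnrc6c (microRNA silencing scaffolds) and Helz (an RNA helicase). Of translation and PRRC2 genes it was 3 of 12 (Prrc2c, Eif4g3 and Prrc2b), of splicing genes 1 of 14 (Acin1), and of THO, nuclear pore and export genes 1 of 16 (Zc3h11a). Motor proteins had 5 of 17 (Dync1h1, Myo18a, Myo9b, Myo9a and Dync2h1) and kinase and growth control genes 5 of 18, led by Akap9, Trio, Igf1r and Kalrn. Nuclear long noncoding RNAs had 1 of 1, Firre, with 9 listed.

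Next come the lists on mineral biology. The share of all mouse genes that carry a peak was not taken, so the numbers of bound genes are a description only. Of 14 osteochondrogenic genes 1 was bound in any list and 0 held a site, and of 14 phosphate and calcification genes 2 were bound and 0 held a site, too few bound genes to set against the background. Extracellular matrix genes had 2 of 20 (Col5a1 and Fbn1), actin and adhesion genes 1 of 13 (Tns3), giant cadherins and LDL receptor relatives 2 of 7 (Fat1 and Lrp6), and TGF-beta, BMP, Wnt and Notch genes 2 of 13 (Nf1 and Lrp6). No histone gene of 9 was bound. Of contractile smooth muscle genes 1 of 6 bound genes held a site, Mylk, with 3 sites.

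To compare conditions, the 324 sites were ranked by score within each list, 1 being the highest, so that every list ranks the same sites. Spearman's rank correlation over the 324 sites, given as a description, was 0.971 to 0.991 between the 2 lists of a condition. It was 0.967 to 0.976 between THOC5 OE and GFP OE lists, 0.961 to 0.975 between Pi and Ctrl lists, and 0.907 to 0.939 (16 pairs) where only 1 of the lists came from overexpressing cells. The median difference in rank between the 2 lists of a condition was 7 in THOC5 OE, 10.75 in GFP OE, 13.5 in Pi and 8 in Ctrl.

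**Figure D4:**
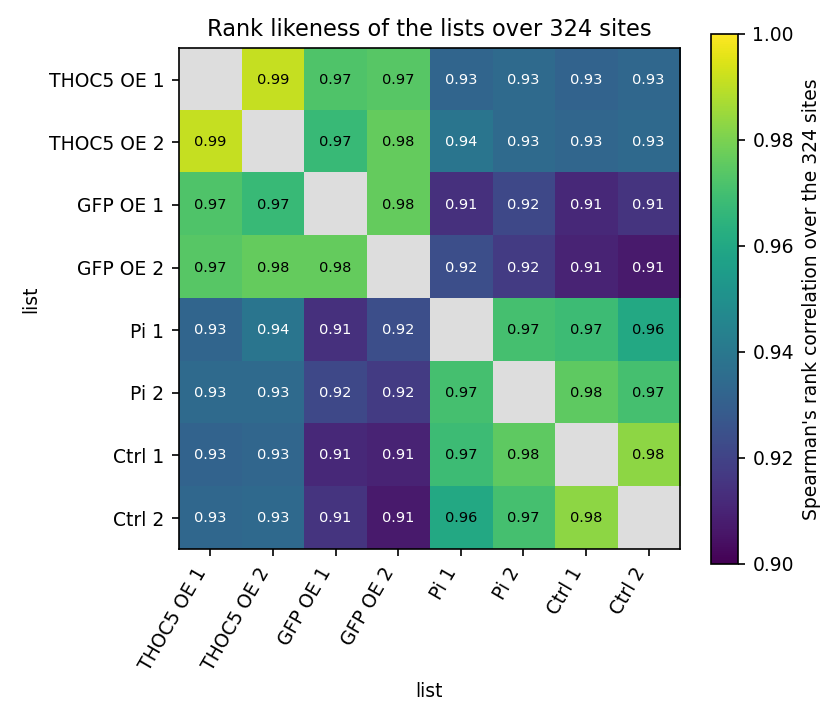
Spearman's rank correlation of the 324 sites between each pair of lists (colour and printed value; lists on both axes, the diagonal left grey). The THOC5 OE and GFP OE lists form a block from 0.97 to 0.99 and the Pi and Ctrl lists another from 0.96 to 0.98, with 0.91 to 0.94 between the blocks.

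Overexpression of THOC5 against GFP, both in osteogenic medium, gave few calls among the shared sites, and the largest differences were at the 3 sites of Mylk. Mylk encodes myosin light chain kinase, which phosphorylates the myosin regulatory light chain and so starts smooth muscle contraction. Ranks were turned into normal scores and fitted with limma over the 4 conditions, with Benjamini-Hochberg adjustment over 324 sites and a threshold of 0.05. A positive difference is a higher place among the sites. In THOC5 OE against GFP OE, 5 sites passed (1.54% of those tested), 3 higher (0.926%) and 2 lower (0.617%), and the 3 higher ones were all sites of Mylk.

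The Mylk site in exon 16 of 32 (chr16:34921664-34922408) had ranks of 192 and 173 in the THOC5 OE lists, 318 and 314.5 in the GFP OE lists, 154 and 158 in Pi and 80 and 84 in Ctrl. The groups did not overlap, which held between THOC5 OE and GFP OE at 150 of the 324 sites (46.3%) and between GFP OE and Pi at 180 (55.6%). The site stood near the bottom of the 324 in both GFP OE lists, nearer the middle in THOC5 OE and Pi and highest in Ctrl. The THOC5 OE minus GFP OE difference was 1.80 ± 0.0860 on the normal-score scale (SE, limma adjusted p = 0.000323). The site in intron 24 of 31 (chr16:34971277-34971927) had ranks of 280 and 278.5 in the THOC5 OE lists, 322 and 323 in the GFP OE lists, 216 and 194.5 in Pi and 182.5 and 138 in Ctrl, and differed by 1.43 ± 0.135 (limma adjusted p = 0.00523). The site in exon 22 of 32 (chr16:34963406-34963960) had ranks of 298 and 313 in the THOC5 OE lists, 324 and 324 in the GFP OE lists, 293.5 and 266 in Pi and 218.5 and 191.5 in Ctrl, and differed by 1.36 ± 0.185 (limma adjusted p = 0.0300). Rank 324 lay at percentile 12.9 of the whole list in GFP OE 1 and at 1.69 in GFP OE 2. The exon 22 score in GFP OE 2 was thus near the lowest of that list. Normal scores widen differences at the ends of the ranking. At each of the 3 sites the 4 groups stood in the same order, highest in Ctrl, then Pi, then THOC5 OE, and lowest in GFP OE.

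On plain ranks in place of normal scores 1 of the 5 calls passed, that of Mylk exon 16, which passed under all 12 alternatives run. The intron 24 and exon 22 calls were lost on plain ranks (limma adjusted p = 0.277 and 0.603). The intron 24 call was also lost without THOC5 OE 1, THOC5 OE 2 or GFP OE 2 (limma adjusted p = 0.0664, 0.0532 and 0.0670). The exon 22 call was also lost without THOC5 OE 1 or 2, GFP OE 1 or 2 or Ctrl 1 or 2 (limma adjusted p from 0.0532 to 0.224) and with the replicate block (0.105). By number of peaks over the whole gene, Mylk had 11 and 9 in the lists of THOC5 OE, 8 and 5 in those of GFP OE, 7 and 7 in those of Pi and 6 and 11 in those of Ctrl, and these counts overlap between most conditions.

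The 2 sites placed lower in THOC5 OE than in GFP OE were in Syne1 and Pkhd1l1. The Syne1 site, in an intron that 3 of 8 lists give as intron 39 of 54 (chr10:5071651-5072637, partly on a LINE element), had ranks of 317.5 and 318 in THOC5 OE, against 293 and 293 in GFP OE, and differed by -0.74 ± 0.0525 (limma adjusted p = 0.00159, and 0.0549 on plain ranks). The other 14 Syne1 sites did not pass, and 13 of their differences were also negative. Over all 324 sites the median difference was -0.01, and sites of 1 gene are not independent of each other. Pkhd1l1 encodes fibrocystin-L, a very large membrane protein, and its site in exon 38 of 78 (chr15:44529209-44529888) had ranks of 100 and 104.5 in THOC5 OE, against 55 and 50 in GFP OE. Its difference was -0.51 ± 0.0771 (limma adjusted p = 0.0422), lost without any one of the THOC5 OE, GFP OE or Ctrl lists (limma adjusted p from 0.135 to 0.352) and on plain ranks (0.0831).

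Osteogenic against growth medium in unmodified cells gave 1 call among 324 sites (0.309%), 0 higher (0%) and 1 lower (0.309%). At an unadjusted limma p under 0.05 it was 49 of the 324 sites. The same count was 42 for THOC5 OE against GFP OE and 105 for GFP OE against Pi. The called site is in intron 10 of 13 of Clca3a1, a gene of the calcium-activated chloride channel regulator family (chr3:144746911-144747466), part of which is also a promoter window of Gm34866. It had ranks of 232.5 and 215.5 in Pi, against 123.5 and 132.5 in Ctrl, with a difference of -0.77 ± 0.0691 (limma adjusted p = 0.0123). The other 2 Clca3a1 sites had differences of -0.60 and -0.49 and did not pass. The call was lost without either THOC5 OE list, either GFP OE list or either Ctrl list (limma adjusted p from 0.0624 to 0.108).

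The Mylk sites did not pass between Pi and Ctrl, although their differences were all negative, at -0.62 (limma adjusted p = 0.0659), -0.77 (0.173) and -0.36 (0.297). The 3 sites with the smallest p among those placed higher in Pi also did not pass: the Bend6 promoter site had ranks of 239 and 256 in Pi, against 294.5 and 311 in Ctrl, intron 52 of 62 of Fryl (chr5:73054208-73054787) had 147 and 160 against 199.5 and 198, and exon 41 of 65 of Dnah7b, an axonemal dynein gene (chr1:46233320-46234222), had 273.5 and 308.5 against 320 and 320.5. The Bend6 site passed without Ctrl 1 (limma adjusted p = 0.0459) and the Dnah7b site without Pi 2 (0.0211).

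GFP OE cells and Pi cells, both in osteogenic medium, differed at sites of 41 genes, with Pkhd1l1 sites among those placed higher and Mylk sites among those placed lower. In this comparison, which shares the GFP OE lists with that of THOC5 OE, 53 sites passed (16.4%), 26 higher (8.02%) and 27 lower (8.33%), in 18 genes higher and 23 genes lower. Whether the number of calls differs between comparisons was not tested. The count depends on single lists: it was 15 without GFP OE 2, 21 without GFP OE 1 and 32 without either THOC5 OE list. Placed by class, the calls were 9 higher and 12 lower in exons, 9 higher and 15 lower in introns, and 3 higher and 0 lower in 3' UTRs.

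Among the sites placed higher in GFP OE, Pkhd1l1 had all 3 of its sites. Its exon 38 site had ranks of 55 and 50 in GFP OE, against 187 and 210.5 in Pi (difference 1.28 ± 0.0771, limma adjusted p = 0.000486). Its exon 49 site (chr15:44546713-44547266) had 48 and 39 in GFP OE, against 148.5 and 183 in Pi (limma adjusted p = 0.00402). Its remaining site, called intron 65 of 77 in 4 of 8 lists (chr15:44573455-44574415), had 162 and 143 in GFP OE, against 318.5 and 298.5 in Pi (limma adjusted p = 0.00879). At all 3 sites the THOC5 OE ranks lay between those of GFP OE and those of Pi.

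The other higher sites with the smallest p were in Vps13b, Agrn and Rnf213. The Vps13b site in intron 38 of 61 (chr15:35793930-35794579) had ranks of 184 and 193 in GFP OE, against 261 and 261.5 in Pi, and 12 of the 13 Vps13b sites had a positive difference, 3 of them called. All 15 Syne1 sites also had a positive difference, 3 of them called. Over all 324 sites the median difference was 0.01, and sites of 1 gene share a transcript. The GFP OE lists enter both comparisons, so these Syne1 signs and the negative ones of THOC5 OE against GFP OE are not independent. The 3' UTR site of Agrn, which encodes the heparan sulfate proteoglycan agrin (chr4:156165598-156166389), had ranks of 11 and 9 in GFP OE, against 33 and 40 in Pi (difference 0.67 ± 0.0741, limma adjusted p = 0.00548). The site in exon 4 of 68 of Rnf213, a large E3 ubiquitin ligase tied to vessel disease (chr11:119408840-119409474), had 13 and 16 in GFP OE, against 39.5 and 36 in Pi.

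Among the sites placed lower in GFP OE, the 3 Mylk sites had the largest differences, at -2.17 ± 0.135 (intron 24, limma adjusted p = 0.000486), -2.01 ± 0.0860 (exon 16, 0.000173) and -1.85 ± 0.185 (exon 22, 0.00402). The exon 22 call was lost on plain ranks (limma adjusted p = 0.0818). Sites of Nid2 and Tns3 followed by smallest p. Intron 6 of 20 of Nid2, a nidogen of the basement membrane (chr14:19778942-19779532, partly on a DNA transposon), had ranks of 290 and 265 in GFP OE, against 81.5 and 121.5 in Pi. Its ranks of 259 and 246 in THOC5 OE were like those of GFP OE, and its 74 and 117 in Ctrl like those of Pi. Intron 11 of 30 of Tns3, a tensin of focal adhesions (chr11:8531814-8532394), had 232 and 253 in GFP OE, against 140 and 134 in Pi.

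By gene list, 6 of the 32 sites of vesicle traffic and BEACH genes were higher in GFP OE than in Pi and 0 lower, against 8.02% higher and 8.33% lower over all 324 sites, with a median difference of 0.26 against 0.01 over all 324 sites. The 6 were 3 sites of Vps13b and 3 of Lrba, so they rest on 2 of the 8 genes. Of 9 sites of kinase and growth control genes 3 were lower and 0 higher, with a median of -0.18, and these were 2 sites of Kalrn and 1 of Igf1r. Both matrix sites of the list (Col5a1 and Fbn1) were not called. The 33 sites of linker genes had 3 higher and 1 lower, the 20 of ubiquitin genes 2 higher and 1 lower, and the 15 of chromatin genes 2 higher and 0 lower. Sites of 1 gene share a transcript, so these counts are not of independent genes.

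**Figure D5:**
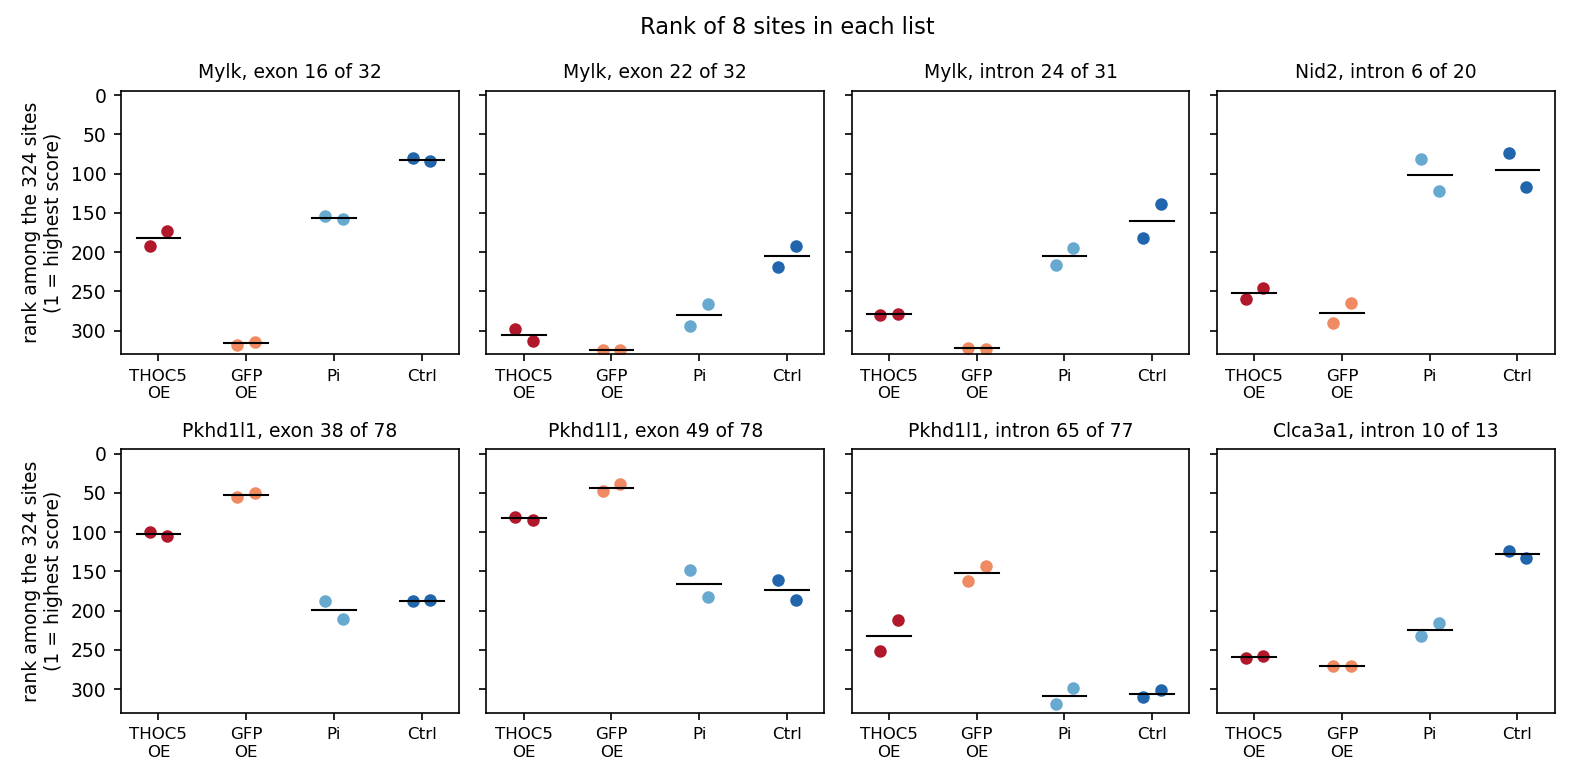
Rank of 8 sites among the 324 (y axis, 1 at the top is the highest score) in THOC5 OE, GFP OE, Pi and Ctrl; points are the 2 lists of a condition and the bar is their mean. The 3 Mylk sites are lowest in GFP OE and highest in Ctrl, the 3 Pkhd1l1 sites are highest in GFP OE, the Nid2 site is lower in both overexpressing conditions, and the Clca3a1 site is highest in Ctrl.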

How the data were processed

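RNA bound by THOC5 was measured by RNA immunoprecipitation and sequencing after rRNA depletion, per the labels' protocols. The submitters' processing notes name FastQC, Bowtie2, MACS2, SAMtools and mm10 with no roles, and the peaks were annotated with HOMER's annotatePeaks.pl, per the file headers. The deposited score of each peak is the authors' own; no source used here gives its scale, the caller's settings or how inputs entered, so scores were used as percentiles within a list or as ranks among the 324 sites. The best peak of a list stood for a site. Only the place of sites by number of lists compared raw scores between lists, by the highest-scored peak of a site. Depth of the libraries is unknown, and p-values measure the spread of lists only.

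Genes came from the transcript in the deposited annotation, matched to RefSeq symbols for 28582 of 28614 peaks that name one. A site's place is the class given by most lists, and 10 ties went to the best-scored peak. Place was tested over lists by an exact two-sided sign-flip permutation test, adjusted over 9 measures; of these, first intron, exon number and gene span were added after the files had been seen. Position along the gene was left out because only 78.5% of peaks in 1 list had a value. Ranks as normal scores were tested with limma 3.58.1 (R 4.3.3), 4 conditions in 1 fit, without a replicate block, Benjamini-Hochberg over 324 sites. Both steps were run on simulated data with independent noise. The real lists share their sites, so those runs cannot speak of that dependence. The members, the 22 gene lists (378 genes) and the tests were chosen with earlier results of these data known.

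Named are Thoc5, the 10 sites with the highest lowest percentile, the 10 genes with the most sites, the weakest, steadiest and most variable sites (5 each at most), up to 5 called sites per direction and comparison, up to 4 members per gene list, and up to 4 sites per place or on repeats, with predicted genes passed over; Shroom2, the intergenic sites and the remaining sites of Mylk, Pkhd1l1 and Clca3a1 were named after their values were seen. Alternatives were other definitions of overlap, a score minimum, lists cut to 2572 peaks, plain ranks, summed scores, a replicate block and leaving out each list.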

Additional observations from a re-analysis of the deposited data

How the results depend on the processing

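The 324 sites became 308 when a stretch covered by all 8 lists was asked for, 276 at 50% overlap of both peaks, 244 with peaks at or over the median score of each list and 294 with lists cut to equal length; asking for 7 lists after leaving out each in turn gave 332 to 432. Exon, intron, 3' UTR, transcription end, repeat, exon number and gene span differences kept their direction and their side of the threshold under all 10 alternatives. In the main setting the transcription end difference rested on 1 shared site. The first intron difference was no longer past the threshold with peaks at or over the median score (-1.50 percentage points) or with lists cut (-2.78). The 5' UTR difference, which did not pass, changed sign with peaks at or over the median score (-0.18). For THOC5 OE against GFP OE, 5 calls became 3 with the replicate block, 1 on plain ranks and 2 to 6 when each list was left out. For Pi against Ctrl, 1 call became 0 with the replicate block, 2 on plain ranks and 0 to 2 when each list was left out. For GFP OE against Pi, 53 calls became 37 with the replicate block and 15 to 46 when each list was left out, and 56 on plain ranks, 53 with summed scores and 63 with the 308 sites. The deviations of same-numbered lists correlated at 0.26 between THOC5 OE and GFP OE, at 0.07 between Pi and Ctrl and at -0.28 between GFP OE and Pi; the labels do not say what a number shares, and the block was kept as an alternative. The Syne1 call was lost on plain ranks (limma adjusted p = 0.0549), as were the Mylk intron 24 (0.277) and exon 22 (0.603) calls and that of Pkhd1l1 (0.0831) against GFP OE; the Pkhd1l1 and Clca3a1 calls were also lost with the replicate block (0.114 and 0.0628). The causes were not tested. With 2 lists a condition, no inputs and no read counts, depth and transcript level could not be weighed.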

Other observations

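Other sites that differed between GFP OE and Pi, were chosen here after their values were seen and stand for no gene group. Lower in GFP OE were intron 3 of 12 of Ptpn9, a tyrosine phosphatase gene (ranks 323 and 322 in GFP OE, against 287.5 and 256 in Pi, difference -1.51 ± 0.266, SE, limma adjusted p = 0.0183), and intron 5 of 26 of Erbin, a scaffold of the ErbB2 receptor (306 and 308 in GFP OE, against 251 and 224 in Pi, limma adjusted p = 0.00879). Intron 8 of 15 of Cdh2, N-cadherin of cell junctions, had 228 and 192 in GFP OE, against 103 and 117 in Pi (limma adjusted p = 0.0108). Intron 14 of 20 of Igf1r, the insulin-like growth factor receptor, had 239.5 and 256.5 in GFP OE, against 190 and 172.5 in Pi (limma adjusted p = 0.0108). Of the 3 Kalrn sites 2 were lower in GFP OE.

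Higher in GFP OE were 3 of the 7 Lrba sites, among them exon 30 of 51 (ranks 158 and 187.5 in GFP OE, against 241 and 245.5 in Pi, limma adjusted p = 0.0108), and the non-coding exon site of Firre (63 and 65 in GFP OE, against 101 and 128.5 in Pi, limma adjusted p = 0.0183). The ranks in THOC5 OE were 324 and 324 at the Ptpn9 site, 302 and 310 at the Erbin site, 219 and 233 at the Cdh2 site, 257 and 248 at the Igf1r site and 64 and 69 at the Firre site. THOC5 OE and GFP OE did not differ past the threshold at any of these 5 sites. What lies behind the likeness of the overexpressing conditions was not tested.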
